A study of Mus musculus with 2 samples.

Results

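The genes described here encode the ATP-driven pumps of cell membranes: the P-type ATPases, which move sodium, potassium, calcium, copper, polyamines or phospholipids, and the rotary vacuolar ATPase, which pumps protons. They were chosen by symbol, as genes named Atp1, Atp2, Atp4 or Atp6 to Atp13 followed by the letter a, b, c, d or v, with at least 1 transcript typed protein_coding. Of 55536 annotated genes, 68 met this rule, beside 22028 protein-coding genes in all. The annotation types 67 of the 68 as protein-coding genes and the other one, Atp10d, as a polymorphic pseudogene. One further member, Atp6v1fnb, is named for lying beside Atp6v1f and is not known as a pump subunit.

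RNA came from the hippocampus of female B6CASTF1/J mice aged 2 months, first-generation hybrids of C57BL/6J and the wild-derived CAST/EiJ strain. From 300 ng of RNA each, 2 libraries of total RNA were made. They are labelled as biological replicates 1 and 2 but list a single donor record. Whether they come from 1 animal or from several is not stated, so their spread may be technical. Both belong to 1 group, with no treatment named. There was therefore no contrast of conditions and no test, and each level is given in both libraries or as a mean ± SD (n = 2).

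P-type ATPases bind ATP, pass its phosphate to an aspartate of their own chain, and change shape as the phosphate is released, which carries the substrate across the membrane. The sodium pump of this class sets the sodium and potassium gradients on which action potentials and transmitter uptake run, and calcium pumps return calcium to its resting level after activity. The vacuolar ATPase turns a ring of membrane subunits (the V0 sector) by ATP hydrolysis in a cytosolic head (the V1 sector). It acidifies lysosomes and endosomes and energises the filling of synaptic vesicles.

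The catalytic aspartate opens a run of 5 codons, for aspartate, lysine, threonine, glycine and threonine, that defines the P-type class. In translated GENCODE M21 coding sequences the run was present in 37 of 37 catalytic P-type members and in 0 of the 31 others, which are sodium and proton pump beta subunits, vacuolar ATPase genes and Atp6v1fnb. Of 21924 protein-coding genes searched, 45 held it (0.205%), and 9 of these lie outside the member list. The codons of 5 pumps are shown with 15 bases on each side, 5′ to 3′ on the coding strand, with the 5 codons in capitals, because they mark what pumps with different substrates share.
Atp2b1: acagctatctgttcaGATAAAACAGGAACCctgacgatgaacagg
Atp2c1: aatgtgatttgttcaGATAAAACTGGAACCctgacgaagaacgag
Atp7a: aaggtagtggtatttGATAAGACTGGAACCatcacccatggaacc
Atp8a1: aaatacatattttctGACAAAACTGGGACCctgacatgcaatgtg
Atp9a: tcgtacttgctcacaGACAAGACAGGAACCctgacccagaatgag
The capitals of the calcium pump Atp2b1 lie at chr10:98999817-98999831 on the plus strand of mm10, and those of the copper pump Atp7a at chrX:106107202-106107216, also on the plus strand, both in coding exons. Over the 45 bases, the Golgi calcium pump Atp2c1 differed from Atp2b1 at 9 bases, the flippase Atp8a1 at 17, its relative Atp9a at 19 and Atp7a at 24, while within the 15 capitals no more than 3 bases differed from Atp2b1. Reads of 100 bases, the length that the listed effective lengths imply, are longer than any exact run shared by the compared paralogs below. The longest such run was 44 bases, between transcripts Atp2a2-201 and Atp2a3-201. Whole transcripts were compared, untranslated ends included, with 1 coding transcript per gene.

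Annotated genes held 29490900 expected read counts in replicate 1 and 30691917 in replicate 2, of which members took 1.31% and 1.27%. The libraries differed by more than read sampling, with a chi-square of 3.68 per degree of freedom over 14540 protein-coding genes. Markers of neurons (5 of 5), dentate granule cells, CA1, CA3, microglia and endothelium (3 of 3 each), astrocytes (5 of 5) and oligodendrocytes (4 of 4) were detected, and 0 of 3 genes of heart muscle and stomach were. Choroid plexus markers were detected for 3 of 5. Summed blood marker TPM was 328 in replicate 1 and 583 in replicate 2. Summed choroid plexus marker TPM was 130 and 73.1, most of it from Ttr (121 and 65.7). These lists differed most between the libraries by the log2 ratio of summed TPM (0.83 and -0.83). Dentate granule cell markers came next at 126 and 152 (0.26). In TPM itself, astrocyte (1804 and 1910), oligodendrocyte (805 and 894) and neuron sums (2687 and 2617) differed by more than the choroid plexus sum. Fewer cells of a type and less RNA per cell cannot be told apart in such tissue samples.

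Pump genes were abundant in the hippocampus. At 1 TPM (a share of all transcripts, corrected for transcript length) or more in both libraries, 48 of 68 members were detected (70.6%), beside 12786 of 22028 protein-coding genes (58.0%). The median member stood at 28.5 ± 0.474 TPM (SD, n = 2) and the median protein-coding gene at 3.27 ± 0.0141 TPM. In both libraries 19 members reached 100 TPM (27.9%), against 3.38% of protein-coding genes. Members made up 0.309% of nuclear protein-coding genes in number and held 1.57% ± 0.0218 of their summed TPM.

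The vacuolar ATPase and the sodium pump together held most of the members' TPM. Vacuolar ATPase genes took 39.9% ± 0.196 of it (25 genes, SD, n = 2), the 8 sodium pump genes 37.5% ± 0.684, the 9 calcium pump genes 15.04% ± 0.383, the 15 P4 genes (flippases and their relatives) 5.64% ± 0.0496 and the 5 P5 genes 1.81% ± 0.0583. Copper pumps took 0.0579% ± 0.00239 and the proton-potassium pump genes 0.00462% ± 0.00315. The order of the leading families depends on the unit. As shares of expected counts, which weigh long transcripts more, the sodium pump took 40.5%, the vacuolar ATPase 25.2% and the calcium pumps 23.8%.

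**Figure D1:**
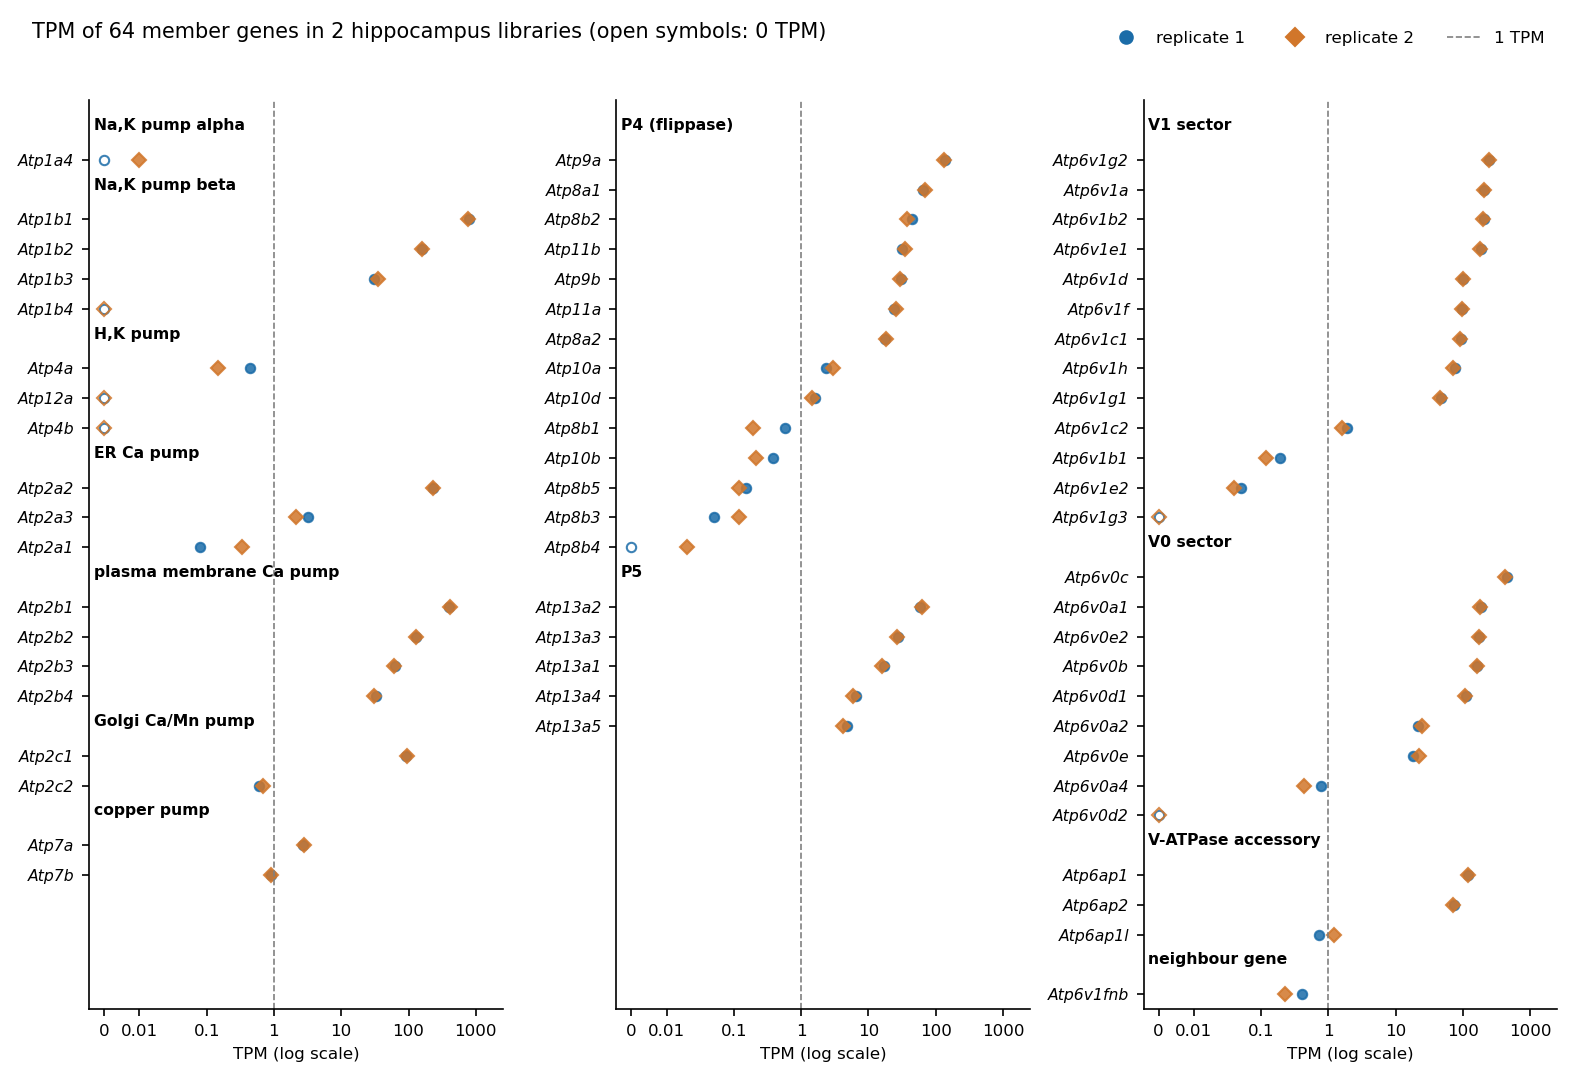
TPM of 64 member genes (log axis) in replicate 1 (circles) and replicate 2 (diamonds), grouped by role, with open symbols at the left edge for 0 TPM and a dashed line at 1 TPM. Atp1b1 lies highest of those shown, at 799 and 754 TPM, and most symbol pairs above 10 TPM overlap.

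Of the sodium pump's beta subunits, which carry the catalytic chain to the cell surface, Atp1b1 prevailed. Atp1b1 (ENSMUSG00000026576.12, chromosome 1, 164437109 to 164458355, minus strand, mm10) stood at 799 TPM in replicate 1 and 754 in replicate 2 and ranked 29 among protein-coding genes. The glial adhesion molecule Atp1b2 stood at 156 and 161 TPM, and Atp1b3 at 31.0 and 34.6 TPM. Atp1b1 thus took 80.2% ± 1.11 of the beta subunits' TPM and Atp1b2 16.4% ± 0.757 (SD, n = 2). Atp1b4, a muscle gene that has lost the pump role in placental mammals, had 0 counts in both libraries. Atp1a4, known from sperm, had 0 counts in replicate 1 and 1.01 in replicate 2.

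Within each library Atp1b1 exceeded Atp1b2 by a log2 ratio of 2.29 ± 0.09 (SD, n = 2), which is 4.90-fold. This difference was larger than the spread between the libraries, taken as 3 SD, as were those of the other 9 paralog pairs compared below. The authors' TPM intervals of the paired genes were separate in both libraries for 10 of 10 pairs, but some of these intervals do not hold the listed TPM itself. For Atp1b1 in replicate 1 the interval was 758.5 to 791 against 799 TPM listed. An SD from 2 values is itself imprecise. An exact permutation test on 2 libraries cannot reach 0.05, so none was run. Values are from the first quantification, the gene tables, unless a second is named, which is a further deposited transcript table whose TPM values were summed per gene.

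Of the proton-potassium pumps, which acidify the stomach and serve colon and kidney, none was detected. Atp4a had 7 counts in each library, at 0.44 and 0.15 TPM. Atp12a and Atp4b had 0 counts in both. A count of 0 allows up to 3 counts, or 0.102 CPM (a share of the library's counts) in replicate 1 and 0.0977 CPM in replicate 2, and this limit covers counting error only.

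**Figure D2:**
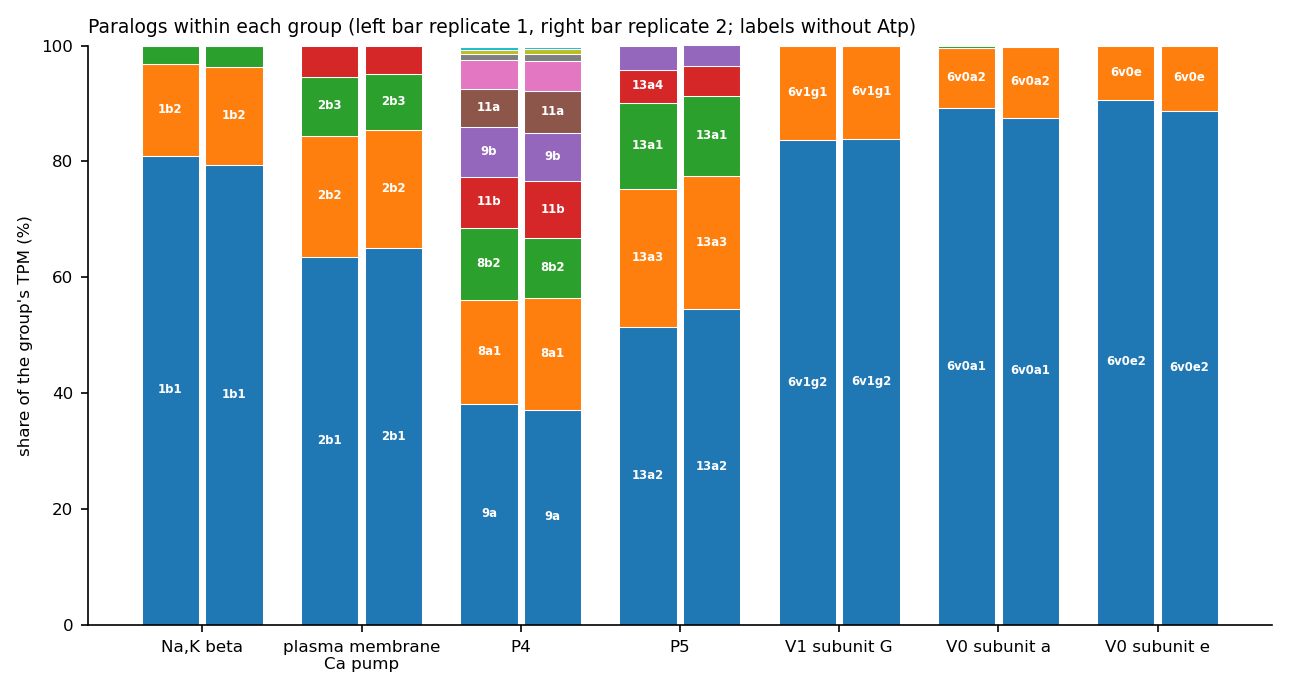
Share of each group's TPM (percent) held by each paralog, with replicate 1 in the left and replicate 2 in the right bar of each pair; labels omit Atp and are given for shares above 5.5 percent. Atp1b1, Atp2b1, Atp6v1g2, Atp6v0a1 and Atp6v0e2 each hold over 60 percent of their group in both libraries, and no P4 gene does.

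Calcium pumps were present for each compartment. Atp2a2, the SERCA pump that refills the endoplasmic reticulum (chromosome 5, 122453513 to 122502225, minus strand), stood at 234 and 230 TPM. Atp2a3, a SERCA pump known from blood and endothelial cells, was listed at 3.24 and 2.11 TPM, from 248 and 206 counts. The muscle pump Atp2a1 was listed at 0.08 and 0.33 TPM. Atp2a2 exceeded Atp2a3 by 6.47 ± 0.42 on the log2 scale, or 88.6-fold (SD of the log2 ratio, n = 2).

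Plasma membrane calcium pumps, which push calcium out of the cell, were all detected. Atp2b1 stood at 394 and 411 TPM, and Atp2b2 at 129.0 TPM in both libraries. Atp2b3 stood at 63.1 and 61.6 TPM and Atp2b4 at 33.4 and 30.6 TPM. The ranges of these 4 genes did not overlap, and Atp2b1 took 64.3% ± 1.03 of their TPM. Atp2b1 exceeded Atp2b2 by 3.12-fold, a log2 ratio of Atp2b2 to Atp2b1 of -1.64 ± 0.05.

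In the Golgi, Atp2c1, which loads calcium and manganese, stood at 92.3 and 95.7 TPM. Its epithelial relative Atp2c2 was listed at 0.59 and 0.68 TPM, below the detection minimum. The copper pumps were low. Atp7a, the gene of Menkes disease, stood at 2.72 and 2.83 TPM, and Atp7b, the gene of Wilson disease, at 0.89 and 0.91 TPM. Atp7a exceeded Atp7b by 1.62 ± 0.02 on the log2 scale, or 3.08-fold.

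Of the 15 P4 genes, most of which flip phospholipids to the cytosolic leaflet of membranes, 10 were detected. Atp9a, an endosomal member that works without a CDC50 subunit, led with 137 and 132 TPM and took 37.7% ± 0.70 of the group's TPM. Atp8a1, a phosphatidylserine flippase, stood at 64.8 and 68.3 TPM, and Atp8b2 at 44.6 and 37.0 TPM. Atp8a1 exceeded its relative Atp8a2, which stood at 17.7 and 18.3 TPM, by 1.89 ± 0.02 on the log2 scale, or 3.70-fold. The other 6 detected P4 genes lay between 1.53 TPM (Atp10d) and 33.4 TPM (Atp11b), and the 5 below the minimum were Atp8b1, Atp10b, Atp8b5, Atp8b3 and Atp8b4.

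P5 genes were detected for 5 of 5 members. Atp13a2, a lysosomal polyamine exporter mutated in Kufor-Rakeb parkinsonism, stood at 58.5 and 63.4 TPM and took 53.0% ± 2.17 of the group. Atp13a3, another polyamine transporter, stood at 27.1 and 26.6 TPM. Atp13a1, which removes misplaced helices from the endoplasmic reticulum membrane, stood at 16.8 and 16.1 TPM. Atp13a4 and Atp13a5 lay at 6.29 ± 0.474 and 4.47 ± 0.375 TPM.

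Of the 25 vacuolar ATPase genes, 19 were detected, and for each subunit with several paralogs 1 gene prevailed. In the V1 head, the catalytic subunit A (Atp6v1a) stood at 204 and 209 TPM and its nucleotide-binding partner B as Atp6v1b2 at 204 and 198 TPM, values whose ranges overlap. Atp6v1g2, the neuronal form of the stator subunit G, led at 242 and 240.2 TPM. It exceeded the ubiquitous Atp6v1g1, at 47.3 and 46.4 TPM, by 2.36 ± 0.01 on the log2 scale, or 5.15-fold.

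The V1 forms known from kidney, epididymis or testis were near 0. Atp6v1b1 had 4 counts in each library, Atp6v1e2 had 1 in each, and Atp6v1g3 had 0 in both. The level of Atp6v1b2 was 1332-fold that of Atp6v1b1, with an exact Poisson 95% interval of 676 to 3085 from the 8 counts of Atp6v1b1. Atp6v1e1, at 185 and 182 TPM, was 4112-fold above Atp6v1e2, with an interval of 1138 to 33956 from 2 counts, and both intervals cover counting error of the lower gene only. Atp6v1c2 was detected at 1.89 and 1.58 TPM, beside 92.2 and 92.0 TPM for Atp6v1c1.

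In the V0 membrane sector the ring subunit Atp6v0c stood highest, at 445 and 420 TPM (chromosome 17, 24163866 to 24169702, minus strand). Its processed pseudogene Atp6v0c-ps2 was listed at 174 and 177 TPM, so reads may be split between near-identical copies and both values are uncertain. Atp6v0a1, the subunit a form of neurons and synaptic vesicles, stood at 183 and 179 TPM and exceeded Atp6v0a2, at 21.5 and 24.96 TPM, by 2.97 ± 0.18 on the log2 scale, or 7.81-fold. Atp6v0e2, at 175 and 173 TPM, exceeded Atp6v0e, at 18.2 and 22.2 TPM, by 3.12 ± 0.22, or 8.69-fold. Atp6v0a4, a kidney form, was listed at 0.79 and 0.44 TPM, and the osteoclast form Atp6v0d2 had 0 counts in both libraries.

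Among the accessory genes, Atp6ap1 stood at 119 TPM in both libraries and Atp6ap2, also known as the prorenin receptor, at 74.0 and 72.4 TPM. Atp6ap1l was listed at 0.73 and 1.20 TPM and so passed the minimum in replicate 2 alone.

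Summed over paralogs, V1 subunits that the complex holds in several copies lay above those it holds once. Subunit G stood at 288 ± 1.97 TPM, A at 206 ± 3.51, B at 201 ± 4.37 and E at 184 ± 2.20 (SD, n = 2). The single-copy subunits D, F, C and H stood at 98.9 ± 0.290, 96.2 ± 0.806, 93.8 ± 0.311 and 73.8 ± 3.51 TPM. The lowest of the first group and the highest of the second were 185.5 and 98.7 TPM in replicate 1 and 182 and 99.1 TPM in replicate 2, so the groups did not overlap, nor did they in the second quantification. The ratio of the group medians was 2.14 in replicate 1 and 2.15 in replicate 2. This ordering was chosen for description after the values were seen and has no test.

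**Figure D3:**
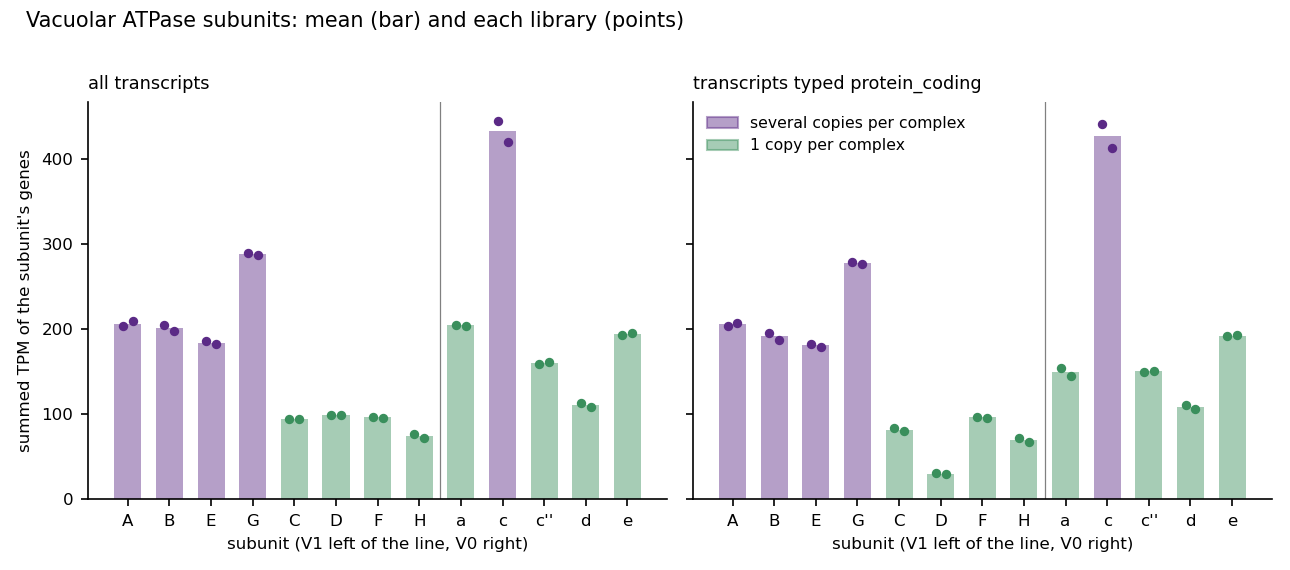
Summed TPM of the genes of each vacuolar ATPase subunit, as the mean (bars) and each library (points), over all transcripts (left) and over transcripts typed protein_coding (right); V1 subunits stand left of the line and V0 subunits right. Subunits A, B, E and G lie above C, D, F and H in both panels, and D falls from 98.9 to 30.05 TPM when other transcript types are left out.

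Over all transcripts, the single-copy subunits of the V0 sector were spread more widely than those of V1. The ring subunit c, held in several copies, was highest at 432 ± 17.9 TPM. The single-copy subunits ranged from 110 ± 2.93 TPM (d) to 205 ± 0.912 TPM (a). Subunits a, e, c'' and d thus all stood above the single-copy V1 subunits in both libraries of the first quantification. In the second, d stood at 180 and 175 TPM, below C at 204 and 216 and D at 215 and 206 TPM. The wider spread in V0 depends on the transcripts counted. Over those typed protein_coding in the first quantification, V1 single-copy means ran from 30.05 (D) to 96.2 TPM (F). Those of V0 ran from 108.5 (d) to 192 TPM (e), a smaller range as a fold. The sum of subunit a leaves out Tcirg1, whose symbol falls outside the rule and which stood at 9.79 and 9.71 TPM.

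Partners of the pumps from a further list were mostly present, with 30 of 36 detected. Of the CDC50 subunits, which most P4 flippases need to leave the endoplasmic reticulum, Tmem30a stood at 94.3 and 91.6 TPM, while Tmem30b and Tmem30c had 2 and 7 counts in each library. Summed TPM of P4 genes other than Atp9a and Atp9b was 2.08 ± 0.0574 times that of Tmem30a (SD, n = 2). Of the FXYD proteins, small modulators of the sodium pump, 5 of 7 were detected. The brain form Fxyd7 stood at 44.8 and 45.7 TPM and Fxyd1 close to it at 44.2 and 44.5 TPM. In the second quantification Fxyd1 was the higher, at 96.2 and 95.6 against 82.0 and 82.8 TPM. Fxyd4 had 0 counts in both libraries.

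Neuroplastin (Nptn), an auxiliary subunit of plasma membrane calcium pumps, stood at 327 and 326 TPM, and 2 of 4 calcium pump partners were detected. The SERCA inhibitors phospholamban (Pln) and sarcolipin (Sln), known from muscle, were listed at 0.60 ± 0.0566 and 0.20 ± 0.0707 TPM. All 8 listed vacuolar ATPase partners were detected, led by Rogdi, a subunit of the assembly factor RAVE, at 145 and 164 TPM. Copper handling genes were detected for 5 of 5, led by the chaperone Atox1 (35.2 and 34.5 TPM). Endolysosomal chloride exchanger genes were detected for 5 of 5, led by Clcn3 (47.7 and 47.3 TPM), and scramblase genes for 4 of 4, led by Xkr4 (38.4 and 38.0 TPM).

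Most genes, pump genes among them, differed little between the 2 libraries. Of 52 members at a mean of 1 CPM or more, 1 (1.92%) had a log2 ratio of replicate 2 to replicate 1 of at least 0.5 in size, beside 4.06% of 15509 genes. None reached 1, beside 0.516% of genes. The median size of the ratio was 0.05 for members and 0.08 for genes in all, and members were also more deeply read, with a median of 105 against 17.3 CPM. In replicate 2, 20 members were higher and 32 lower, with a median ratio of -0.03 for members and -0.01 over genes in all.

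The gene past 0.5 was Atp8b1, a P4 gene mutated in familial cholestasis, at -0.60 from 41 and 28 counts. It lies below 1 TPM and so outside the naming rule, and it was named after its value was seen. In the second quantification 0 members passed 0.5. Of 5 choroid plexus markers, 3 stood at a mean of 1 CPM or more, and they were not alike. Ttr was lower in replicate 2, at 121 and 65.7 TPM (log2 ratio -0.88). Kl stood at 4.51 and 4.09 TPM (-0.15), and Sostdc1 was nearly level at 2.03 and 2.00 TPM (-0.02). Their part in the ratio of Atp8b1 was not tested.

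Among members at a mean of at least 1 TPM and 50 counts, low ratios included those of Atp2a3 (-0.33), Atp8b2 (-0.20), Atp2b4 (-0.15) and Atp13a5 (-0.14). The highest were those of Atp10a (0.33), Atp6v0e (0.19), Atp1b3 (0.11), Atp10d (0.11) and Atp2c1 (0.07). Exact Poisson 95% intervals of the counts were separate for Atp8b2, Atp2b4 and Atp10a among these 9. Atp8b2 had 93.4 CPM (89.9 to 96.9) in replicate 1 and 81.7 CPM (78.5 to 84.9) in replicate 2, and Atp10a had 9.16 CPM (8.10 to 10.3) and 11.5 CPM (10.4 to 12.8). Such intervals cover counting error only, and with 1 library on each side no test was possible.

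**Figure D4:**
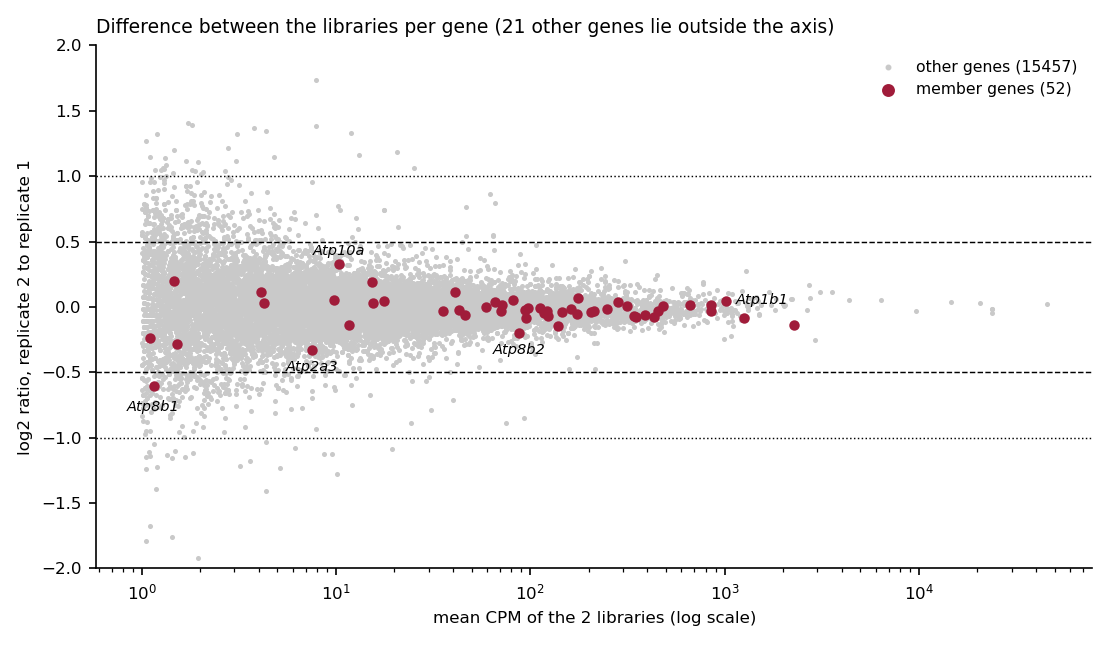
Log2 ratio of replicate 2 to replicate 1 against mean CPM (log axis) for 52 members (red) and the other genes at a mean of 1 CPM or more (grey), with lines at 0.5 (dashed) and 1 (dotted) in both directions. Only Atp8b1 among the members lies past 0.5, near the left edge where the grey cloud is widest.

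Transcript tables split each gene over its annotated transcripts. For 46 detected members with several transcripts, the leading transcript took a median of 67.1% of the gene's TPM, and over 90% in 11 genes. The same transcript led in both libraries for 41 of the 46, and in both quantifications for 37. Transcripts typed protein_coding held 87.5% ± 0.761 of the detected members' TPM, retained introns 7.52% ± 0.411 and transcripts marked for nonsense-mediated decay 3.11% ± 0.122 (SD, n = 2).

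Among the members with the highest TPM and several transcripts, Atp6v0c-201 took 98.2% ± 0.206 of its gene, Atp6v1g2-201 95.1% ± 0.0293, Atp1b1-201 85.3% ± 0.0844 and Atp2b1-201 36.1% ± 0.302. In Atp2b1, Atp2b1-201 was the one transcript with a coding sequence over 2500 bases. By expected counts it took 73.9%, since the transcripts next in TPM are short.

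Atp2a2 was led in both quantifications by Atp2a2-203, typed as nonsense-mediated decay, at 63.5% ± 0.328 in the first and 45.1% ± 0.161 in the second. Its coding sequence of 3132 bases is the same as that of Atp2a2-201 (20.5% ± 0.532), the long form known as SERCA2b. Atp2a2-202, the form with the tail of the cardiac SERCA2a, took 14.1% ± 0.104. Over these 3 transcripts the long coding sequence held 85.6% ± 0.0604 in the first quantification and 77.4% ± 0.0610 in the second (SD, n = 2). The forms part after coding base 2983, and the last shared 20 bases are shown in lower case with the first bases of each tail in capitals.
Atp2a2-201: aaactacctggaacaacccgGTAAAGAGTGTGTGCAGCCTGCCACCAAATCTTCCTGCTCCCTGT
Atp2a2-202: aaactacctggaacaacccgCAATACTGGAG
The tail of Atp2a2-202 ends after 11 bases of its own, and that of Atp2a2-201 runs on to 149.

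Plasma membrane calcium pumps are spliced in the tail that binds calmodulin, and the annotated forms also differ elsewhere. In Atp2b3, Atp2b3-203 held 83.2% in replicate 1 and 74.0% in replicate 2 of the transcripts with a long coding sequence, and Atp2b3-202 held 11.4% and 21.3%. They part after coding base 3344, shown as for Atp2a2 because this is where the 2 tails begin.
Atp2b3-203: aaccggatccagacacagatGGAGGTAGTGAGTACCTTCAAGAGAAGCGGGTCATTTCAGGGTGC
Atp2b3-202: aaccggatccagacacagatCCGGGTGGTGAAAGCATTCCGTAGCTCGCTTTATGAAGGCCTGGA
In Atp2b2, transcripts Atp2b2-201 and Atp2b2-203 encode the same protein and held 73.2% ± 0.816 together in the first quantification and 61.6% ± 0.906 in the second. Atp2b2-202, which carries 135 further bases after coding base 907, held 13.9% ± 1.15 and 23.3% ± 1.27. Its last 2687 coding bases are those of Atp2b2-201, so these 2 forms do not differ in the tail. In Atp2b4, Atp2b4-201 held 70.4% ± 4.39 and Atp2b4-203 21.1% ± 2.41. Their coding sequences, of 3498 and 3516 bases, part only after base 3493.

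The Golgi pump Atp2c1 had 21 transcripts and no dominant one. Atp2c1-209 led in replicate 1 and Atp2c1-216 in replicate 2, with means of 19.8% ± 1.88 and 18.5% ± 0.242. The low Atp2a3 was led by Atp2a3-201 at 44.2% ± 5.81. Leading transcripts also differed between the libraries for Atp9a, Atp13a2, Atp9b and Atp7a. In Atp9a, Atp9a-203 was listed at 74.5 and 52.2 TPM and Atp9a-201 at 36.2 and 67.1 TPM, forms that differ by 174 coding bases after the start codon, and the second quantification gave 88.5% ± 5.39 to Atp9a-203. In Atp13a2, Atp13a2-201 held 36.8% ± 5.30 in the first and 26.9% in the second quantification, and Atp13a2-203 held 35.3% and 43.3%. The lead differed between the quantifications for Atp9a, Atp2c1, Atp13a2, Atp8b2, Atp9b, Atp11a and Atp6v1c2, among others. Atp11a-202 held 31.1% in the first and 5.27% in the second.

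In some members the leading transcript was of a type other than protein_coding, and these were named after their values were seen. In Atp6v1d, the single-copy rotor subunit D, the retained intron transcript Atp6v1d-202 of 775 bases held 66.5% ± 0.624 of TPM, while the coding Atp6v1d-201 of 3667 bases held 30.4% ± 0.218 of TPM and 70.0% of expected counts. The coding transcript of Atp6v1d was thus listed at 30.1 and 29.96 TPM. In Atp11b the short Atp11b-211, typed as nonsense-mediated decay, led TPM with 27.9% ± 2.17 but held 4.28% of expected counts, of which Atp11b-203 held the most (42.2%). In Atp10d the leader was Atp10d-202, typed as a polymorphic pseudogene, with 52.1% ± 7.82. Transcripts typed protein_coding held under 50% of TPM in 5 genes, namely Atp6v1d, Atp11b, Atp10d, Atp2a2 and Atp9b. In the second quantification 4 genes lay under 50%, since those of Atp2a2 held 53.3% ± 0.0305.

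**Figure D5:**
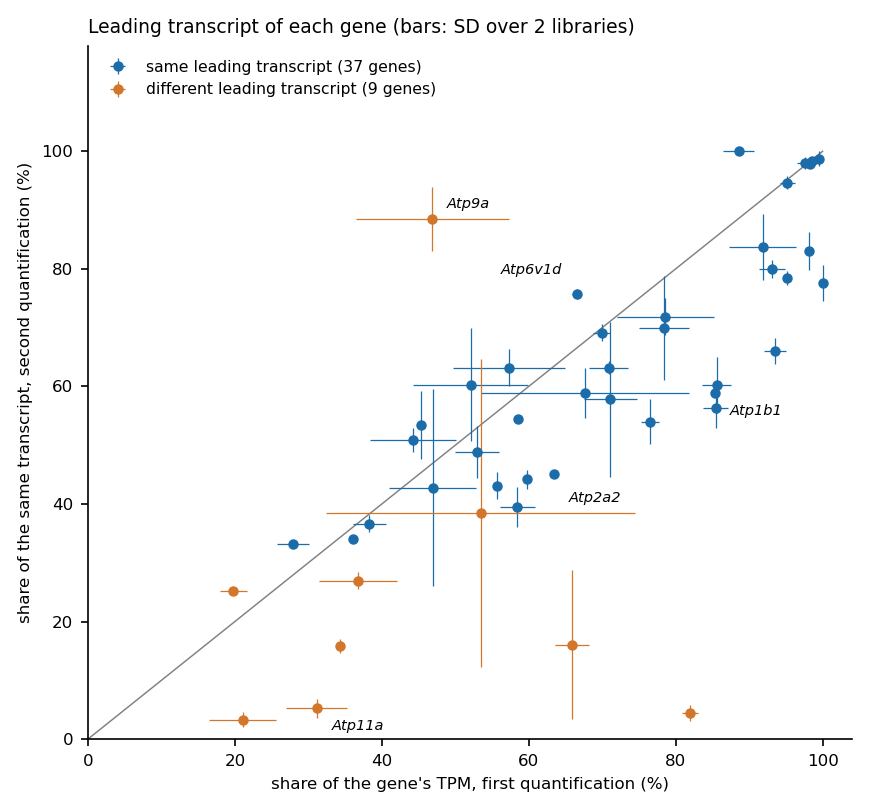
Share of a gene's TPM (percent) held by its leading transcript of replicate 1 in the first quantification (horizontal) and by the same transcript in the second (vertical), with SD over 2 libraries as bars, for 46 members. Most genes lie near or below the diagonal, while Atp9a lies at 46.9 and 88.5 percent and Atp11a at 31.1 and 5.27 percent.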

How the data were processed

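Per the file headers, the authors deposited for each library a gene table and a transcript table with an expected count and a TPM value, and per gene the bounds of a TPM interval (a score here), in the layout of RSEM. A further transcript table, in the layout of kallisto, holds an estimated count and TPM per the file headers, and was summed per gene as the second quantification. The labels give mm10, the notes beside the files the M21 annotation. Aligner and counter names for these files were not given in the sources used here.

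Ratios of replicate 2 to replicate 1 used expected counts with 0.5 added over TMM-scaled library totals (edgeR 4.0.16 in R 4.3.3, Python 3.11.15), for genes at a mean of 1 CPM or more. On simulated counts of 15504 genes, 99.5% of the 198 given a log2 shift of 1.5 passed 1, beside 4 genes that were not shifted. The simulation gave all genes the same small spread between libraries. In the real libraries 80 of 15509 genes passed 1, so the 4 genes give no error rate for these data. DESeq2 1.42.0 size factors, library totals, other minimums, another pseudocount, shares of counts, the second quantification and each library alone were the alternatives.

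The members, the partner, marker and pair lists and the naming rule were chosen with earlier results of these data known. The rule names, per role, the 3 members with the highest mean TPM, or all of a role with up to 4. It names members at 0 counts in both libraries, members of the pairs, and the 5 largest ratios in each direction among members at a mean of at least 1 TPM and 50 counts. It names the leading transcripts of the 6 highest genes, the calcium pumps and genes whose leader differs between libraries or quantifications, and per partner group the highest gene and any at 0. Some members and sequences that the rule names are not reported here. Sequences are from GENCODE M21 transcripts.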

Additional observations from a re-analysis of the deposited data

How the results depend on the processing

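Of 71 alternative values, 51 stayed within the spread of the libraries, or for counts within 1.5 times, 20 moved and 0 changed sign. This tally does not measure robustness. For shares and ratios, either of 2 libraries alone always lies within 1 SD of their mean, so those values could not have moved. Each family share compared did move in the second quantification and as a share of expected counts. The number of detected members, 48, became 51 at a minimum of 0.5 TPM, 41 at 5 TPM and 52 in the second quantification. Each replicate alone gave 48 and 49. The second quantification gave shares of 39.2% for the sodium pump, 14.3% for calcium pumps, 5.39% for P4 genes and 39.4% for the vacuolar ATPase. Shares of expected counts gave 40.5%, 23.8%, 8.04% and 25.2%, in that order. In the second quantification 7 of the 10 paralog log2 ratios moved by more than 1 SD: Atp1b1 to Atp1b2 was 2.38, Atp2b2 to Atp2b1 -1.52, Atp6v1b2 to Atp6v1b1 10.92, Atp6v1g2 to Atp6v1g1 2.51, Atp6v0e2 to Atp6v0e 2.75, Atp8a1 to Atp8a2 2.12 and Atp7a to Atp7b 1.42. With no minimum, 6 members passed a ratio of 0.5 and 3 passed 1, since genes with few counts then entered. In the second quantification 0 passed 0.5, and the cause was not tested. The ratio of medians between V1 subunits in several copies and single-copy ones, 2.15 as a mean, was 2.16 in the second quantification and 2.62 over transcripts typed protein_coding, settings added after the data were seen. Leading transcripts compare both libraries, so leaving one out gives no value there.

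TPM of detected members was 1.74 times as high in the second quantification by median (range 1.33 to 2.37), near the 1.71 of protein-coding genes, so levels are comparable within a quantification only. In 8 members with at most 3 counts in each library, levels are not resolved at this depth. No paired analysis was possible because there is 1 group.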

Other observations

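Members lie on 19 chromosomes, and some lie within 100 kb of each other on the same strand. Atp13a5 and Atp13a4 lie 17.1 kb apart on chromosome 16, at 4.47 ± 0.375 and 6.29 ± 0.474 TPM (SD, n = 2). Atp6v1fnb begins 924 bases after Atp6v1f on chromosome 6, at 0.315 ± 0.12 TPM against 96.2 ± 0.806. On the X chromosome lie 6 members, of which 5 were detected, Atp2b3, Atp7a, Atp6ap1 and Atp6ap2 among them.

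Exons of 3 members overlap another gene on the same strand, in no case over more than 10% of the member's exonic bases. Exons of 20 members overlap a gene on the opposite strand, led among detected members by Atp2c1 with Aste1 (18.9% of exonic bases, Aste1 at 3.71 and 4.51 TPM) and Atp1b1 with Nme7 (18.7%, Nme7 at 9.55 and 12.3 TPM). The labels name a spike-in profile for stranded libraries, but whether the counting used strand is not given, so reads from the 2 strands of such stretches cannot be told apart.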
